A study of Mus musculus with 16 samples.

Results

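The mitochondrial transfer RNAs that decode aspartate, lysine, glycine and arginine, mt-tRNA-Asp, mt-tRNA-Lys, mt-tRNA-Gly and mt-tRNA-Arg (rows mito_tRNA-Asp-GTC-1, mito_tRNA-Lys-TTT-1, mito_tRNA-Gly-TCC-1 and mito_tRNA-Arg-TCG-1), were followed through all 16 tRNA libraries of a study that used base editing against a disease-causing mutation in the mitochondrial tRNA-Ala gene. The 4 rows were taken by name and by their place on the heavy-strand transcript, and they are 4 of the 22 mitochondrial tRNAs among 819 transcript rows counted in fibroblasts and 821 in hearts. The fibroblast set held 2 libraries each, from separate cell passages, of 3 mouse embryonic fibroblast lines labelled Cl_1, Cl_2 and Cl_3 and of 1 line labelled Ctrl_1; the labels do not say how the lines arose. The heart set held 4 mice given AAV9-DdCBE and 4 given AAV9-GFP. AAV9 is an adeno-associated virus that reaches heart muscle, DdCBE is a base editor that deaminates cytosines in mitochondrial DNA, and GFP is a fluorescent protein without editing activity. Hearts came from the m.5024T mouse model, so both treatments were given to mice of that model. The AAV9-DdCBE mice were mouse 26, labelled 2X, mouse 25, labelled 5X, and mice 17 and 18, labelled 10X, while the AAV9-GFP mice were mice 14 and 19, labelled 3X, and mice 5 and 6, labelled 5X; the labels explain neither the X values nor the age or strain of the mice.

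In mitochondria the genes of 1 DNA strand are copied into a long transcript, the heavy-strand transcript, in which tRNAs lie between the protein-coding messages. RNase P cuts each tRNA at its 5′ end and ELAC2 at its 3′ end, so that excising a tRNA also frees the messages on either side. In the RefSeq gene order mt-tRNA-Asp, which can carry the modified base queuosine at its wobble position, lies between mt-tRNA-Ser-TGA and COX2, a subunit of cytochrome c oxidase. The gene of mt-tRNA-Lys, which carries a taurine-modified wobble base and whose human counterpart is mutated in the epilepsy syndrome MERRF, lies between COX2 and ATP8, a subunit of ATP synthase. The gene of mt-tRNA-Gly lies between COX3 and ND3, and that of mt-tRNA-Arg between ND3 and ND4L, where COX3 is a cytochrome c oxidase subunit and ND3 and ND4L are subunits of respiratory complex I.

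Libraries held 1473330 to 4375975 counts in fibroblasts and 1540287 to 3037178 in hearts, and no pair of libraries within a group agreed within sampling noise. The mutated gene's own product, mt-tRNA-Ala, lay at 104 to 287 CPM (counts relative to library size, scaled by the trimmed mean of M-values, TMM) in the 6 Cl libraries and at 456 and 588 CPM in the 2 Ctrl_1 libraries. In hearts it lay at 1773 to 6623 CPM after AAV9-DdCBE and at 852 to 2086 CPM after AAV9-GFP. All 22 mitochondrial tRNAs together took 2.14% to 3.01% of the counts in Cl lines, 3.41% to 3.74% in Ctrl_1, 38.9% to 59.9% in AAV9-DdCBE hearts and 37.4% to 43.3% in AAV9-GFP hearts. A tRNA table holds no cell type markers, so the labelled cell type could not be checked, and in bulk RNA a change in the cells or mitochondria sampled and a change in RNA per cell cannot be told apart.

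Of the 4 tRNAs, mt-tRNA-Asp and mt-tRNA-Arg were lower in the Cl lines than in Ctrl_1, mt-tRNA-Gly was lower by a similar amount without passing the test, and mt-tRNA-Lys showed no difference that passed it. Levels of mt-tRNA-Asp were 709 and 1332 CPM in Cl_1, 1188 and 1491 CPM in Cl_2 and 1440 and 1063 CPM in Cl_3, against 2269 and 2117 CPM in Ctrl_1. All 6 Cl libraries lay below both Ctrl_1 libraries, and the passages of Cl_1 lay furthest apart. Levels of mt-tRNA-Arg were 317 and 424 CPM in Cl_1, 316 and 362 CPM in Cl_2 and 297 and 307 CPM in Cl_3, against 516 and 559 CPM in Ctrl_1. Again no Cl library reached a Ctrl_1 library, and here the passages of Cl_3 lay closest together.

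Levels of mt-tRNA-Gly were 400 and 929 CPM in Cl_1, 549 and 702 CPM in Cl_2 and 524 and 385 CPM in Cl_3, against 1002 and 973 CPM in Ctrl_1. Every Cl library was again below both Ctrl_1 libraries, although the second Cl_1 passage came near them. Levels of mt-tRNA-Lys were 2031 and 1994 CPM in Cl_1, 1650 and 1626 CPM in Cl_2 and 1945 and 1622 CPM in Cl_3, against 2755 and 1458 CPM in Ctrl_1. The Cl libraries all fell between the 2 Ctrl_1 libraries, so that mt-tRNA-Lys was the member whose groups overlapped. Non-overlapping lower levels were found for 3 of the 4 tRNAs, set beside 22.9% of the 201 transcripts tested.

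**Figure D1:**
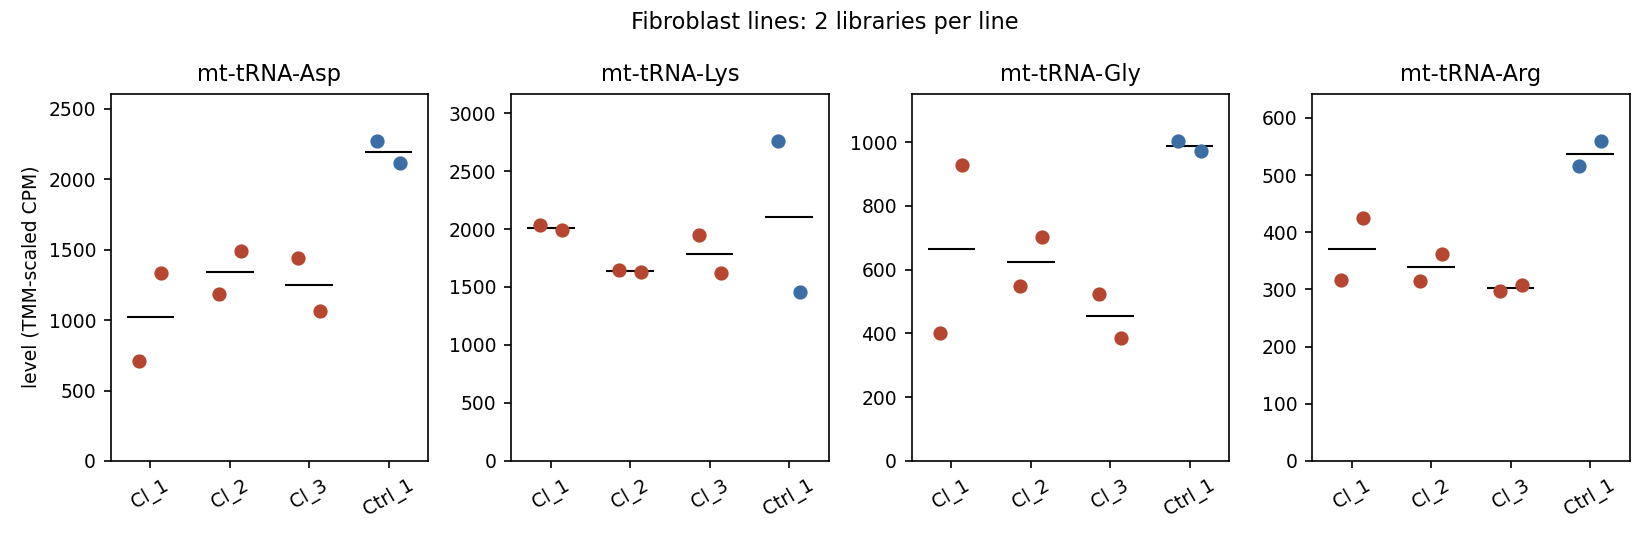
Levels of the 4 tRNAs (TMM-scaled CPM, linear axes from 0) in each fibroblast library, with Cl_1, Cl_2 and Cl_3 in red, Ctrl_1 in blue and the mean of each line as a bar. For mt-tRNA-Asp, mt-tRNA-Gly and mt-tRNA-Arg all red points lie under both blue points, while for mt-tRNA-Lys the blue points at 2755 and 1458 CPM enclose the red ones.

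With the mean of the 3 Cl lines set against Ctrl_1, edgeR's quasi-likelihood test with Benjamini-Hochberg adjustment gave mt-tRNA-Asp a log2 change of -0.88 (adjusted p = 0.0145, SE 0.22), which is 1.83-fold lower. For mt-tRNA-Arg the log2 change was -0.68 (edgeR adjusted p = 0.00460, SE 0.13), or 1.60-fold lower. The log2 difference of mt-tRNA-Gly was -0.78 (SE 0.28, edgeR adjusted p = 0.0527), nearly that of mt-tRNA-Asp with a wider error, and that of mt-tRNA-Lys was -0.22 (SE 0.21, edgeR adjusted p = 0.437). Thus 2 of the 4 fell and 0 rose, beside 25.4% of the 201 tested transcripts that fell and 22.9% that rose. The 97 calls behind these shares became 59 without the first Ctrl_1 library. These p-values measure the spread between passages of a line, and only 1 line stands for the control. When the passages of each line were summed, leaving 3 lines against 1, mt-tRNA-Asp at -0.90 and mt-tRNA-Arg at -0.70 no longer passed (edgeR adjusted p = 0.111 and 0.236), and mt-tRNA-Arg also missed with nuclear transcripts summed per anticodon (-0.55, edgeR adjusted p = 0.0605).

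The value of mt-tRNA-Lys rested on which Ctrl_1 passage was used. Without the first Ctrl_1 library it was 0.29 on the log2 scale (edgeR adjusted p = 0.125), whereas without the second it was -0.60 (edgeR adjusted p = 0.00812). mt-tRNA-Gly passed without the first Cl_1 library (-0.63, edgeR adjusted p = 0.0149) and without the second (-1.02, edgeR adjusted p = 0.00231), and it passed with DESeq2 on all libraries (adjusted p = 0.0183). mt-tRNA-Asp missed the threshold without the first Ctrl_1 library (-0.84, edgeR adjusted p = 0.0706), whereas mt-tRNA-Arg passed whichever library was left out.

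Taken line by line against the shared Ctrl_1 libraries, mt-tRNA-Arg was lower in each Cl line, with log2 changes of -0.54 in Cl_1, -0.67 in Cl_2 and -0.83 in Cl_3 (SE 0.17 each, edgeR adjusted p = 0.0450, 0.0163 and 0.00620). mt-tRNA-Asp fell in Cl_1 (-1.10, SE 0.29, edgeR adjusted p = 0.0221) and Cl_3 (-0.81, SE 0.29, edgeR adjusted p = 0.0498), and its Cl_2 value was -0.71 (edgeR adjusted p = 0.0836). That Cl_2 value passed with DESeq2 (-0.73, adjusted p = 0.0236) and with no filter on low counts (-0.71, edgeR adjusted p = 3.88e-05). It did not pass with library totals or with DESeq2 size factors in edgeR (edgeR adjusted p = 0.171 and 0.0743). mt-tRNA-Gly fell in Cl_3 (-1.12, SE 0.36, edgeR adjusted p = 0.0358), with values of -0.57 in Cl_1 and -0.66 in Cl_2 (edgeR adjusted p = 0.247 and 0.188). For mt-tRNA-Lys the 3 values ran from -0.36 to -0.07, the lowest edgeR adjusted p being 0.309. With 1 library left out they ranged from -0.47 to 0.45 in Cl_1, -0.73 to 0.15 in Cl_2 and -0.61 to 0.28 in Cl_3. With no filter on low counts mt-tRNA-Lys passed in Cl_2 (-0.36, edgeR adjusted p = 0.0486). It did not pass in that setting in Cl_1 or Cl_3 (edgeR adjusted p = 0.871 and 0.262). By the main fit the number of members that fell was 2 in Cl_1, 1 in Cl_2 and 3 in Cl_3, beside 18.9%, 20.4% and 24.4% of all tested transcripts. Of these 6 calls, the Cl_3 call of mt-tRNA-Arg was the one that passed whichever single library was left out. With library totals in place of TMM, 4 of the 6 were lost: mt-tRNA-Arg in Cl_1 and Cl_2 (edgeR adjusted p = 0.103 and 0.0533), and mt-tRNA-Asp and mt-tRNA-Gly in Cl_3 (0.115 and 0.0725). In Cl_1 the passages decided the size, since without the first Cl_1 library mt-tRNA-Gly was -0.07 and mt-tRNA-Asp -0.70, and without the second they were -1.26 (edgeR adjusted p = 0.00907) and -1.59. The Cl_2 value of mt-tRNA-Gly passed without either Cl_1 library (edgeR adjusted p = 0.0230 and 0.0233).

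No difference among the Cl lines passed the test at the 4 tRNAs: an edgeR F test for any difference among Cl_1, Cl_2 and Cl_3 gave adjusted p = 0.537 for mt-tRNA-Asp, 0.655 for mt-tRNA-Lys, 0.457 for mt-tRNA-Gly and 0.409 for mt-tRNA-Arg. Thus 0 of the 4 passed, beside 24.4% of all tested transcripts. The value for mt-tRNA-Gly passed without the first Cl_1 library (edgeR adjusted p = 0.0475).

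The median log2 difference of the 4 tRNAs was -0.73, that of the other 10 tRNAs of the heavy-strand transcript was -0.74, that of the 8 tRNAs of the other strand was -0.01 and that of all tested transcripts was near 0. Of those other 10, 9 fell and 0 rose, with values from -1.25 to -0.63, so mt-tRNA-Lys at -0.22 was the smallest difference among the 14. Of the 8 on the other strand 2 fell and 0 rose, the values running from -1.68 for mt-tRNA-Ala to 0.60. The counts were also scaled on the 18 other mitochondrial tRNAs in place of the whole table. The mean of the Cl lines then differed from Ctrl_1 by -0.28 for mt-tRNA-Asp, -0.20 for mt-tRNA-Gly, -0.08 for mt-tRNA-Arg and 0.41 for mt-tRNA-Lys. None of these passed (lowest edgeR adjusted p = 0.0736). By line, mt-tRNA-Asp in Cl_1 still passed under that scaling (-0.59, edgeR adjusted p = 0.0258), beside 105 of the 201 tested transcripts called in Cl_1. No other member passed in any line.

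**Figure D2:**
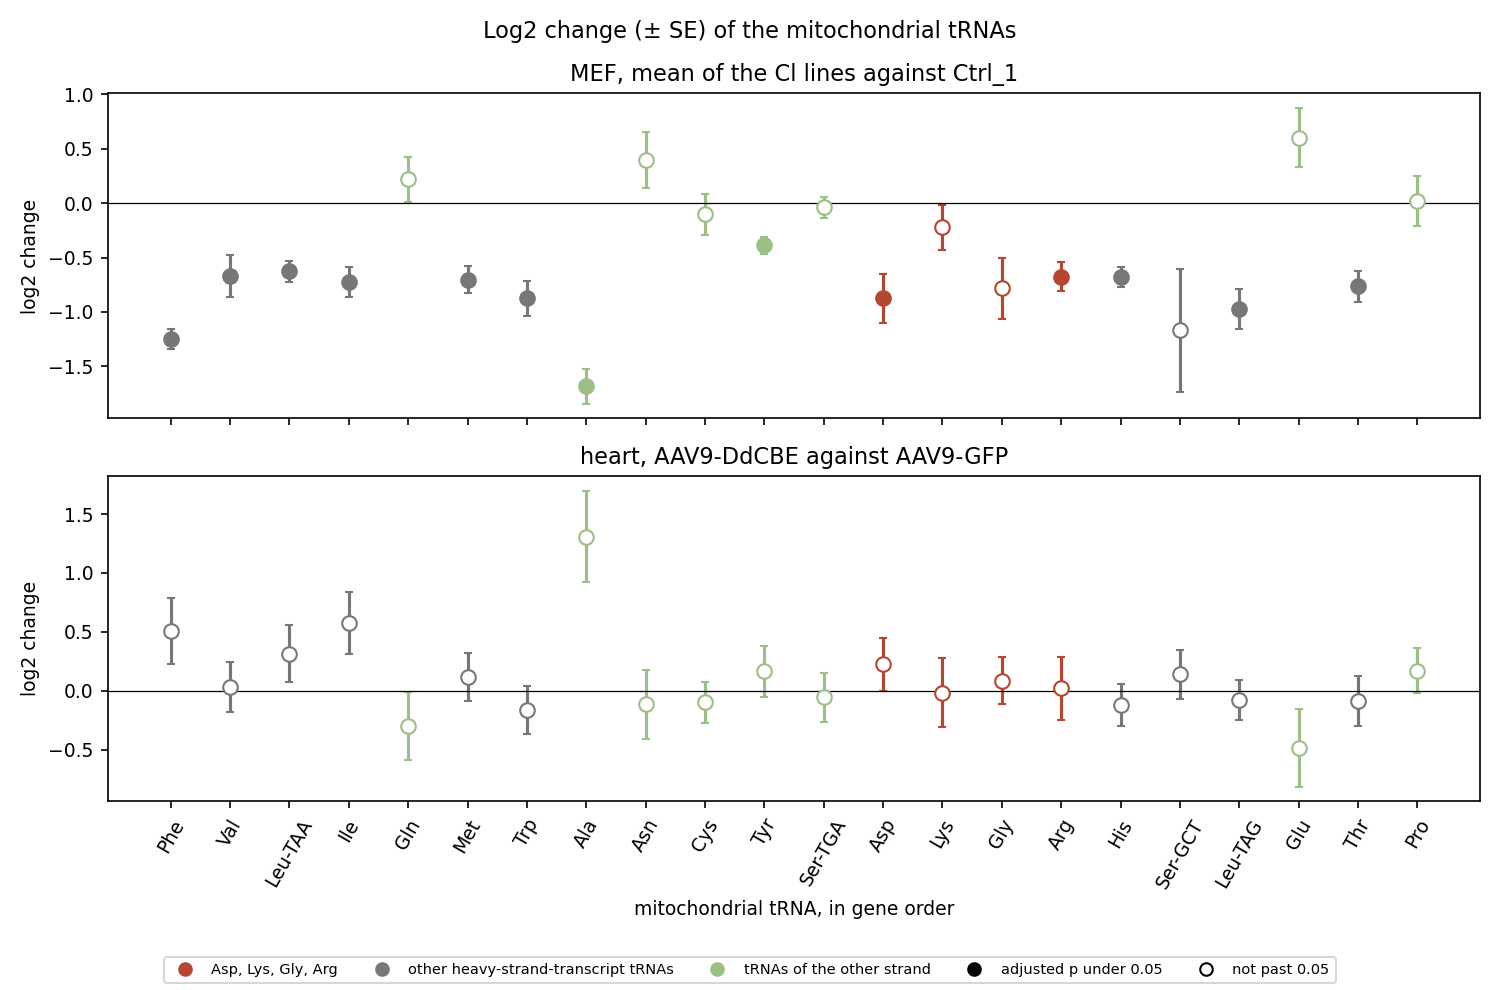
Log2 change with its SE (vertical axes) of each mitochondrial tRNA in gene order, for the Cl lines against Ctrl_1 (top) and AAV9-DdCBE against AAV9-GFP hearts (bottom), filled where the edgeR adjusted p was under 0.05. In the top panel mt-tRNA-Asp, mt-tRNA-Gly and mt-tRNA-Arg (red) lie among the other heavy-strand-transcript tRNAs in grey. There mt-tRNA-Lys at -0.22 lies outside the grey range and is the closest to 0 of these 14. In the bottom panel all 4 lie among the grey symbols and no symbol is filled.

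As shares of all mitochondrial tRNA counts, which set the general level of mitochondrial tRNA aside, the 4 tRNAs lay in overlapping ranges in Cl lines and Ctrl_1. mt-tRNA-Asp made up 4.81% ± 1.06 in Cl lines (SD, n = 6) and 5.82% ± 0.219 in Ctrl_1 (SD, n = 2), and mt-tRNA-Lys 7.33% ± 1.20 and 5.50% ± 1.96 in the same groups. mt-tRNA-Gly made up 2.29% ± 0.566 in Cl lines and 2.62% ± 0.172 in Ctrl_1, and mt-tRNA-Arg 1.35% ± 0.0816 in Cl lines and 1.43% ± 0.205 in Ctrl_1. Over the 8 share comparisons in fibroblasts and hearts, a two-sided exact permutation test gave adjusted p from 0.619 to 0.829, where the smallest p that 6 against 2 libraries allow is 0.0357 and 4 against 4 hearts 0.0286. After adjustment a single fully separated share could have reached only 0.286 in fibroblasts and 0.229 in hearts, so 1 such share alone could not have passed, and the fibroblast splits also treat passages of 1 line as independent. The fewest counts behind any such share were 551, for mt-tRNA-Arg in the second Cl_2 library, whose 1.39% has a 95% Wilson interval of 1.28% to 1.51%. That interval covers counting error only, since reads without molecular identifiers are not independent molecules.

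After AAV9-DdCBE, no difference of the 4 tRNAs from AAV9-GFP hearts passed the test, and the treatments overlapped for each. Levels of mt-tRNA-Asp were 22859 CPM in mouse 26, 24126 CPM in mouse 25 and 43551 and 29178 CPM in mice 17 and 18 after AAV9-DdCBE, against 29602, 26845, 22229 and 23745 CPM in mice 14, 19, 5 and 6 after AAV9-GFP. Mouse 17 stood above every other heart and the remaining AAV9-DdCBE hearts lay within the AAV9-GFP range. In mouse 17 all 22 mitochondrial tRNAs together took 59.9% of the counts, against 37.4% to 44.5% in the other hearts. Of its mitochondrial tRNA counts mt-tRNA-Asp took 6.88%, mt-tRNA-Lys 6.09%, mt-tRNA-Gly 5.22% and mt-tRNA-Arg 1.19%. None of these shares was the highest among the hearts. Levels of mt-tRNA-Gly, in the same order of mice, were 19160, 19980, 33062 and 22186 CPM after AAV9-DdCBE, against 23627, 24715, 19540 and 20933 CPM after AAV9-GFP. Mouse 17 was again the highest, and mice 26 and 25 were near the lowest AAV9-GFP heart.

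Levels of mt-tRNA-Lys in the same order were 22628, 16106, 38600 and 20972 CPM after AAV9-DdCBE, against 15811, 30663, 24333 and 28578 CPM after AAV9-GFP. Mouse 14, given AAV9-GFP, was the lowest heart for mt-tRNA-Lys although it had the second highest mt-tRNA-Asp. Levels of mt-tRNA-Arg were 5129, 3466, 7518 and 4178 CPM after AAV9-DdCBE, against 3161, 6343, 4991 and 5500 CPM after AAV9-GFP. The hearts fell in the same order for mt-tRNA-Arg as for mt-tRNA-Lys except that mice 26 and 5 changed places, with mouse 17 highest and mouse 14 lowest.

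**Figure D3:**
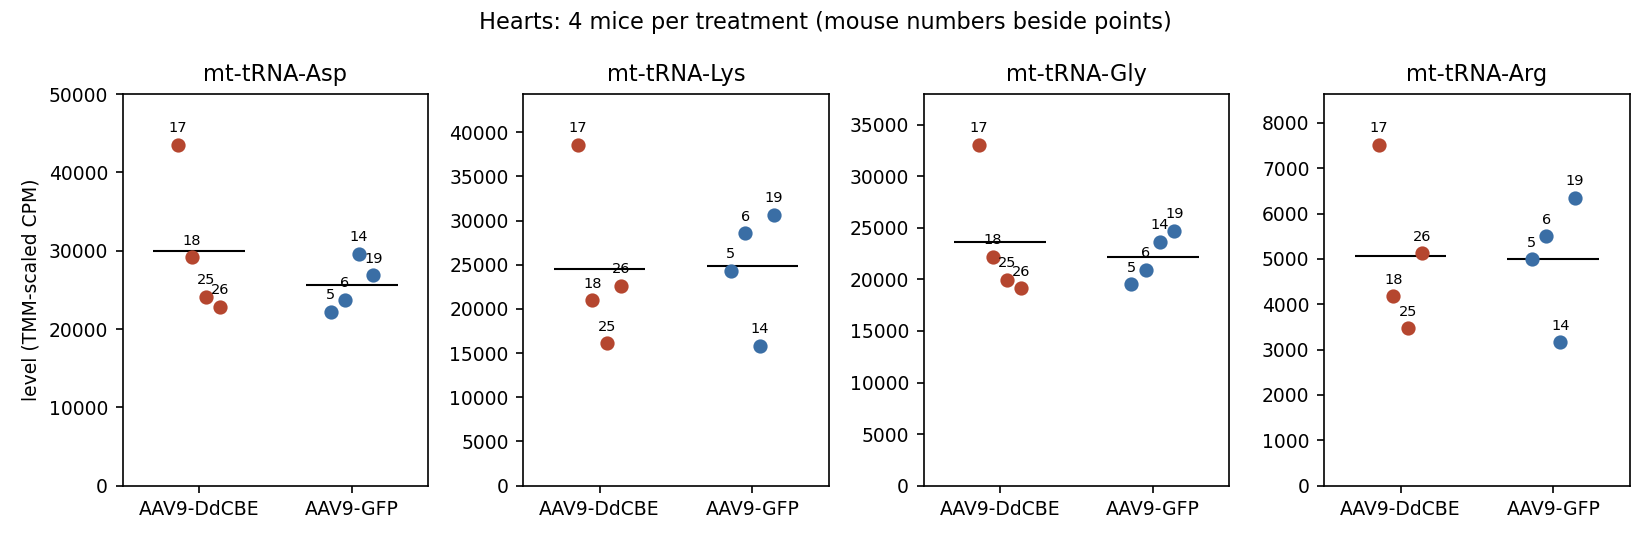
Levels of the 4 tRNAs (TMM-scaled CPM, linear axes from 0) in each heart, AAV9-DdCBE in red and AAV9-GFP in blue, with mouse numbers beside the points and the mean of each treatment as a bar. The treatments overlap for every tRNA, mouse 17 is highest throughout, and mouse 14 is low for mt-tRNA-Lys and mt-tRNA-Arg but not for mt-tRNA-Asp and mt-tRNA-Gly.

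The log2 differences between AAV9-DdCBE and AAV9-GFP hearts were 0.23 for mt-tRNA-Asp (SE 0.23, edgeR adjusted p = 0.504), -0.02 for mt-tRNA-Lys (SE 0.29, edgeR adjusted p = 0.958), 0.09 for mt-tRNA-Gly (SE 0.20, edgeR adjusted p = 0.757) and 0.02 for mt-tRNA-Arg (SE 0.27, edgeR adjusted p = 0.950). Of the 4 tRNAs 0 passed, and of the 180 transcripts tested 0% passed by edgeR, of which 35 (19.4%) had an unadjusted p under 0.05. That count of 0 was 19 without mouse 25 and 31 without mouse 26, and DESeq2 called 27. The treatments overlapped for all 4 tRNAs, beside 5.56% of transcripts that were higher and 2.22% that were lower without overlap. The members' median was 0.05, set beside 0.08 for the other 10 tRNAs of the heavy-strand transcript, -0.08 for the 8 of the other strand and -0.10 for all tested transcripts. Without mouse 17 the differences were -0.01 for mt-tRNA-Asp, -0.32 for mt-tRNA-Lys, -0.12 for mt-tRNA-Gly and -0.23 for mt-tRNA-Arg.

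Within the 5X label, the one that both treatments carried, the single AAV9-DdCBE heart, mouse 25, differed from mice 5 and 6 by log2 values of 0.066 for mt-tRNA-Asp, -0.72 for mt-tRNA-Lys, -0.023 for mt-tRNA-Gly and -0.60 for mt-tRNA-Arg. With 1 heart on that side only the sizes of these differences are given. Mouse 14, given AAV9-GFP, was lower than mouse 25 for both mt-tRNA-Lys and mt-tRNA-Arg. The pair of 10X hearts against all AAV9-GFP hearts gave log2 differences of 0.51 for mt-tRNA-Asp (SE 0.22, edgeR adjusted p = 0.0798), 0.26 for mt-tRNA-Lys, 0.32 for mt-tRNA-Gly and 0.23 for mt-tRNA-Arg. No member passed in that comparison, beside 51.7% of the 180 tested transcripts, and the label is confounded with treatment because no AAV9-GFP heart carried it. The 93 transcripts behind that share became 45 without mouse 6, 50 without mouse 5 and 41 without mouse 17, and 0 rows passed with nuclear transcripts summed per anticodon. The mt-tRNA-Asp value passed under several other settings, with a log2 change between 0.58 and 0.77, and was 0.19 when mouse 17 was left out, while mt-tRNA-Gly passed without mouse 18 (0.58, edgeR adjusted p = 0.0282).

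Within the hearts the 4 tRNAs varied as 2 pairs, mt-tRNA-Lys with mt-tRNA-Arg and mt-tRNA-Asp with mt-tRNA-Gly. Over the 8 hearts the log2 ratio of mt-tRNA-Lys to mt-tRNA-Arg counts had an SD of 0.08 and that of mt-tRNA-Asp to mt-tRNA-Gly an SD of 0.10, whereas the 4 ratios across the pairs had SDs of 0.36 to 0.43. Mouse 14, given AAV9-GFP, lay furthest out in those 4 ratios. In the AAV9-DdCBE hearts alone their SDs were 0.26 to 0.31, against 0.10 and 0.08 within the pairs. Other mitochondrial tRNAs ran about as closely with some members, as given further below. In the fibroblast libraries the 6 SDs were 0.29 to 0.57, so the tight pairs of the hearts were not seen there. A ratio of counts is compared here between libraries only, since counts of different tRNAs are not on 1 scale.

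The log2 ratio of mt-tRNA-Lys to mt-tRNA-Arg was 2.26 ± 0.10 after AAV9-DdCBE and 2.31 ± 0.05 after AAV9-GFP (n = 4 each, SD). That of mt-tRNA-Asp to mt-tRNA-Gly was 0.33 ± 0.08 after AAV9-DdCBE and 0.20 ± 0.09 after AAV9-GFP, a difference of 0.13 (two-sided exact permutation test, p = 0.0857, adjusted p = 0.643 over 12 ratio comparisons). Over 12 comparisons a single fully separated ratio could not have gone below an adjusted p of 0.343 in hearts or 0.429 in fibroblasts. The ratio of mt-tRNA-Asp to mt-tRNA-Lys was 1.01 in mouse 26, 1.50 in mouse 25, and 1.13 and 1.39 in mice 17 and 18 after AAV9-DdCBE, against 1.87, 0.875, 0.914 and 0.831 in mice 14, 19, 5 and 6 after AAV9-GFP. Mice 14, 25 and 18, with the 3 highest ratios, also had the 3 lowest library totals of 1540287, 1646074 and 2070246 counts. Mouse 17, with the highest total of 3037178, had the fourth highest ratio, and the part of depth in the ratio was not tested. In fibroblasts the log2 ratio of mt-tRNA-Asp to mt-tRNA-Lys was -0.62 ± 0.47 in Cl lines (SD, n = 6) and 0.13 ± 0.58 in Ctrl_1 (SD, n = 2), with 5 of 6 Cl libraries below both Ctrl_1 libraries (two-sided exact permutation test, p = 0.143, adjusted p = 0.643). That difference of -0.75 was -1.16 without the first Ctrl_1 library and -0.34 without the second.

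**Figure D4:**
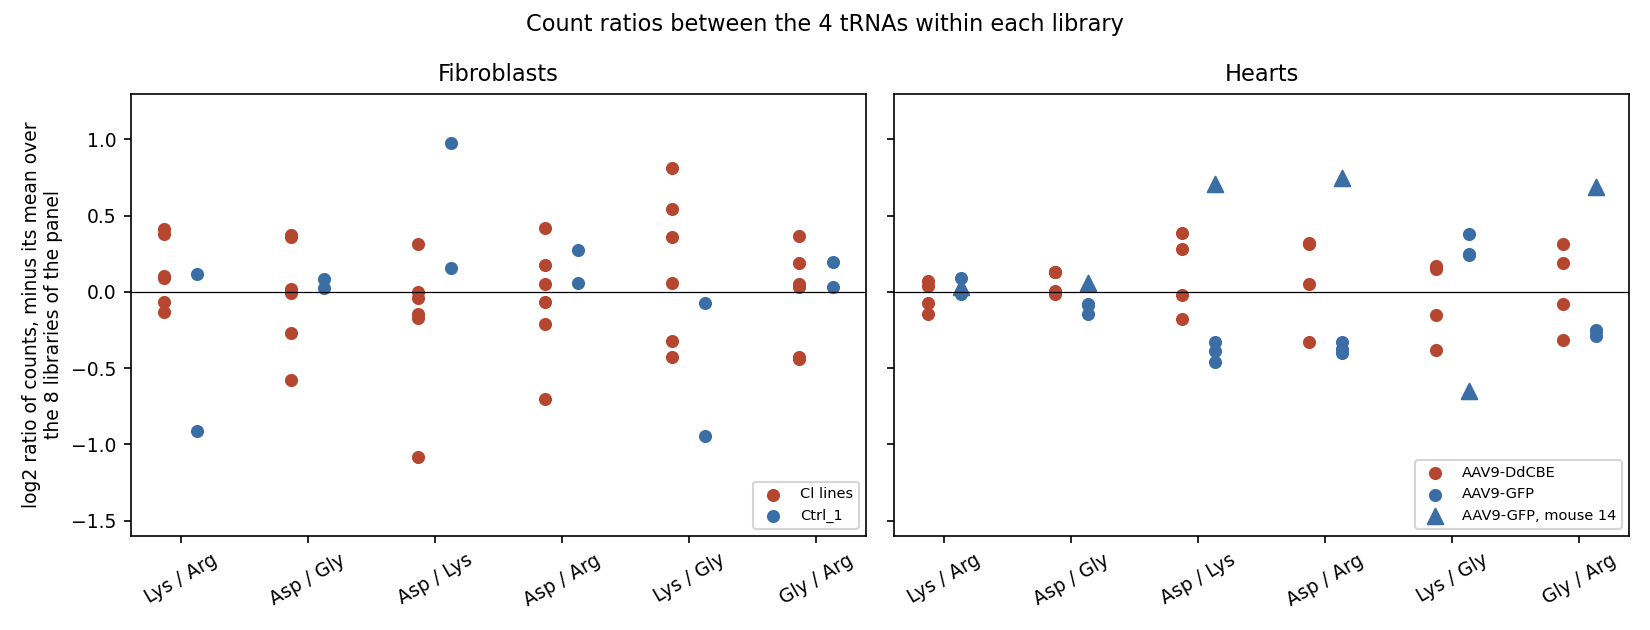
Log2 ratios of counts between the 4 tRNAs within each library, minus their mean over the 8 libraries of the panel (vertical axis), in fibroblasts (left) and hearts (right). In hearts the Lys / Arg and Asp / Gly ratios keep within a narrow band (SD 0.08 and 0.10), and the 4 ratios across these pairs spread more widely (SD 0.36 to 0.43), mouse 14 (triangle) lying furthest out.

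The other transcripts whose levels ran most like each member's were found from Pearson's r of log2 CPM over the 8 libraries of a table, given as a description of libraries that share their scaling and depth. In hearts mt-tRNA-Lys ran most closely with mt-tRNA-Arg (r = 0.985) and mt-tRNA-Asn (0.973), and mt-tRNA-Arg with mt-tRNA-Lys and mt-tRNA-Asn (0.978). mt-tRNA-Asp ran with mt-tRNA-Tyr (0.983) and mt-tRNA-Ser-GCT (0.967), and mt-tRNA-Gly with mt-tRNA-Tyr (0.968) and mt-tRNA-Asp (0.957). mt-tRNA-Asp and mt-tRNA-Lys had r = 0.435. In fibroblasts mt-tRNA-Gly ran with mt-tRNA-Thr (0.936) and mt-tRNA-Leu-TAG (0.912), and mt-tRNA-Arg with mt-tRNA-Phe (0.954) and mt-tRNA-Thr (0.951). The nearest transcripts of mt-tRNA-Asp there were the nuclear tRNA-Gly-GCC-1 (0.943) and tRNA-Thr-TGT-1 (0.936), and those of mt-tRNA-Lys were tRX-Lys-CTT-1 (0.871), a tRNA-like row, and tRNA-Glu-CTC-2 (0.842), while mt-tRNA-Lys had r of 0.144 to 0.231 with the other 3 members.

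Each of the 4 anticodons is also carried by nuclear-encoded tRNAs, which serve translation in the cytosol. The mitochondrial tRNA took 1.96% to 7.84% of the Asp-GTC counts, 2.07% to 4.55% of Lys-TTT, 1.61% to 3.94% of Gly-TCC and 1.31% to 2.44% of Arg-TCG in fibroblasts. In hearts it took 47.4% to 77.0% of Asp-GTC, 24.2% to 59.5% of Lys-TTT, 65.2% to 80.8% of Gly-TCC and, with a median of 33.1%, up to 51.1% of Arg-TCG, so that more reads with the Gly-TCC anticodon were mitochondrial than nuclear in all 8 hearts. Fibroblasts and hearts were counted in separate tables, and no test was made across them.

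In Cl lines the mitochondrial share of Asp-GTC was 3.45% ± 0.816 (SD, n = 6), against 6.72% ± 1.58 in Ctrl_1 (SD, n = 2), and that of Arg-TCG was 1.45% ± 0.200, against 2.42% ± 0.0233 in Ctrl_1. For both anticodons every Cl library was below both Ctrl_1 libraries, as was so for 7 (33.3%) of the 21 mitochondrial tRNAs that share an anticodon with nuclear rows. The share of Gly-TCC was 2.58% ± 0.880 in Cl lines and 3.61% ± 0.0375 in Ctrl_1, and that of Lys-TTT was 3.68% ± 0.540 in Cl lines and 2.81% ± 1.05 in Ctrl_1, with overlap. Summed over its nuclear transcripts, Arg-TCG was higher in Cl lines (log2 change 0.21, edgeR adjusted p = 0.00838, SE 0.05) and Lys-TTT lower (log2 change -0.46, edgeR adjusted p = 0.00798, SE 0.10), while Asp-GTC at 0.24 and Gly-TCC at -0.14 did not pass (edgeR adjusted p = 0.0964 and 0.0620). In the fit of these sums 13 of 74 rows rose and 17 fell. Fitted singly, the nuclear Lys-TTT transcripts went both ways. There tRNA-Lys-TTT-1 (-0.66) and tRNA-Lys-TTT-7 (-0.34) fell, and tRNA-Lys-TTT-2 (1.03) and tRNA-Lys-TTT-3 (1.14) rose (edgeR adjusted p from 0.000305 to 0.0383). The value of tRNA-Lys-TTT-5 (-0.32) did not pass (edgeR adjusted p = 0.482). Among all 201 transcripts fitted singly, 46 rose and 51 fell. In hearts none of the 4 nuclear sums passed (lowest edgeR adjusted p = 0.806), and 0 of the 70 rows in the fit of sums did.

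**Figure D5:**
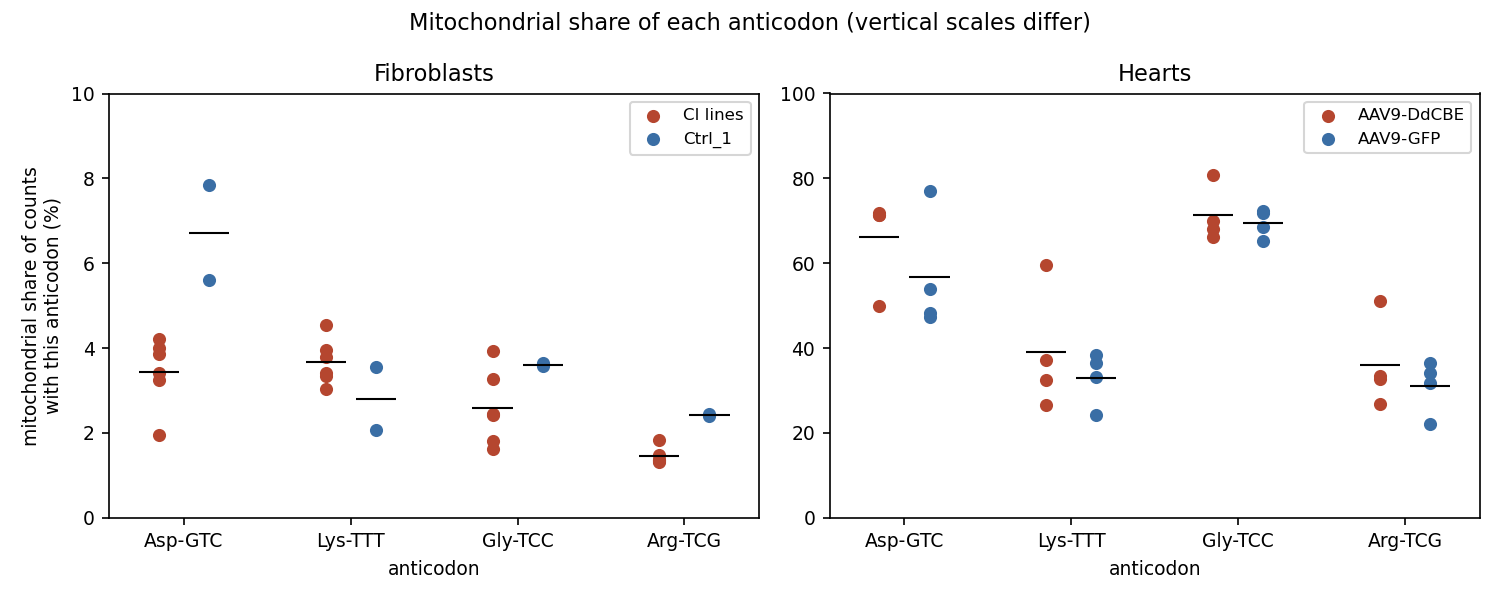
Mitochondrial share of all counts with each anticodon (percent, linear axes from 0 whose scales differ), per library, in fibroblasts (left) and hearts (right), with group means as bars. Shares reach 7.84% in fibroblasts and 80.8% in hearts, and the Cl lines lie under Ctrl_1 without overlap for Asp-GTC and Arg-TCG.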

How the data were processed

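Transfer RNA was sequenced by mim-tRNAseq after oxidation and beta-elimination, per the labels' protocols. The deposited tables hold whole-number counts per tRNA transcript; reads were trimmed with cutadapt 3.5 and the build was mm39, per the submitters' processing notes. The aligner, the counter and the handling of reads shared by near-identical transcripts were not given in the sources used here, so rows of near-identical nuclear tRNAs are uncertain. Fibroblasts (8 libraries) and hearts (8 libraries) were fitted separately with edgeR 4.0.16 in R 4.3.3 (filterByExpr minimum count 10, TMM, quasi-likelihood, Benjamini-Hochberg, threshold 0.05), after a test on simulated data; 201 and 180 transcripts passed the filter, all 4 members among them. Alternatives used DESeq2 1.42.0, other scalings, no filter and left-out libraries. Shares and ratios were computed from raw counts in Python 3.11.15 and tested by exact permutation. Gene order came from RefSeq (GRCm38.p6), for names only. Named transcripts are the 4 members, mt-tRNA-Ala, the 2 transcripts most like each member, neighbours in the gene order and nuclear tRNAs of the same anticodons; the ends of a range are also named. Members and lists were chosen with earlier results of these data known.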

Additional observations from a re-analysis of the deposited data

Results flagged for a closer look

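Mouse 14, given AAV9-GFP, stood apart from the other 3 AAV9-GFP hearts in 5 of the 14 values examined in that group for a sample far from the rest, where chance gives about 1 in 20; the 14 values of AAV9-DdCBE hearts gave 0. Its share of mitochondrial tRNA counts taken by mt-tRNA-Arg was 0.749%, while the others had 1.31% to 1.42%. Its log2 ratio of mt-tRNA-Asp to mt-tRNA-Lys was 0.905, against -0.27 to -0.13 in the others, and that of mt-tRNA-Asp to mt-tRNA-Arg was 3.23, against 2.08 to 2.16. Its log2 ratio of mt-tRNA-Lys to mt-tRNA-Gly was -0.580, against 0.31 to 0.45, and that of mt-tRNA-Gly to mt-tRNA-Arg was 2.90, against 1.93 to 1.97. The 5 values share the same 4 counts of 1 library, which also had the lowest total of the hearts (1540287 counts).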

How the results depend on the processing

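All values here are log2 differences unless a share or p is named, and the cause of a change was not tested. For the mean of the Cl lines against Ctrl_1, the log2 differences of mt-tRNA-Asp, mt-tRNA-Gly and mt-tRNA-Arg kept their direction under every alternative run. Scaled on the 18 other mitochondrial tRNAs, the values were -0.28 for mt-tRNA-Asp, -0.082 for mt-tRNA-Arg and 0.41 for mt-tRNA-Lys. By line they were 0.54, 0.25 and 0.45 for mt-tRNA-Lys in Cl_1, Cl_2 and Cl_3 and 0.0068 for mt-tRNA-Arg in Cl_1. Under the same scaling mt-tRNA-Asp in Cl_1 was -0.59 and still passed (edgeR adjusted p = 0.0258). With library totals, mt-tRNA-Lys in Cl_1 was 0.0048 and 4 of the 6 calls by line were lost. mt-tRNA-Gly passed with no filter (-0.78), with DESeq2 (-0.78) and with the passage number as a replicate block (-0.80, edgeR adjusted p = 0.0448), and its difference among the Cl lines with no filter (edgeR adjusted p = 0.0312). The differences between the 2 passages of a line correlated between lines by 0.070 to 0.25, positive for every pair of lines. Whether the passage numbers pair the libraries is therefore not settled, and the main fits treated them as unpaired. Under the replicate block 105 transcripts were called, against 97 without it. The Cl_3 call of mt-tRNA-Asp was also lost there (-0.80, edgeR adjusted p = 0.0534). The hearts are separate animals, so no paired analysis was possible there. Summing passages gave -0.90 for mt-tRNA-Asp and -0.70 for mt-tRNA-Arg, which no longer passed, and summing nuclear transcripts per anticodon, chosen after seeing the data, gave -0.55 for mt-tRNA-Arg and 0.020 for mt-tRNA-Lys in Cl_1.

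Leaving out 1 library at a time, the Cl mean ranged from -1.05 to -0.75 for mt-tRNA-Asp, -0.60 to 0.29 for mt-tRNA-Lys and -1.02 to -0.63 for mt-tRNA-Gly, mt-tRNA-Lys ranged from -0.47 to 0.45 in Cl_1, -0.73 to 0.15 in Cl_2 and -0.61 to 0.28 in Cl_3, and the p for a difference of mt-tRNA-Gly among Cl lines from 0.0475 to 0.802. Between AAV9-DdCBE and AAV9-GFP hearts these ranges were -0.012 to 0.46 for mt-tRNA-Asp, -0.32 to 0.28 for mt-tRNA-Lys, -0.12 to 0.30 for mt-tRNA-Gly and -0.23 to 0.30 for mt-tRNA-Arg, and for 10X hearts 0.19 to 0.77, -0.24 to 0.64, -0.0011 to 0.58 and -0.26 to 0.60 in the same order. The log2 ratio of mt-tRNA-Asp to mt-tRNA-Lys differed by -1.16 to -0.34 in fibroblasts and 0.12 to 0.51 in hearts. The ratio ranges that crossed 0 were -0.15 to 0.039 for mt-tRNA-Asp to mt-tRNA-Gly in fibroblasts, and -0.041 to 0.29 for mt-tRNA-Gly to mt-tRNA-Arg and -0.34 to 0.0031 for mt-tRNA-Lys to mt-tRNA-Gly in hearts. Share differences in percentage points ranged from -0.23 to 0.060 for mt-tRNA-Arg in fibroblasts and -0.17 to 0.094 for mt-tRNA-Gly in hearts.

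In hearts mt-tRNA-Lys, at -0.02, was 0.12 with DESeq2 and with its size factors, 0.056 with library totals, 0.13 with no filter and 0.27 with nuclear transcripts summed. Scaled on the 18 other mitochondrial tRNAs, mt-tRNA-Gly was -0.017 and mt-tRNA-Arg -0.11, and in 10X hearts mt-tRNA-Lys was -0.061 and mt-tRNA-Arg -0.090. Within 5X hearts, with 1 AAV9-DdCBE heart, mt-tRNA-Lys was -0.72, mt-tRNA-Gly -0.023 and mt-tRNA-Arg -0.60. In 10X hearts mt-tRNA-Asp passed with DESeq2 or its size factors (0.70), library totals (0.58), no filter (0.73) or a filter by label chosen after seeing the data (0.70). Taken of all tRNA counts, share differences turned for mt-tRNA-Lys in fibroblasts (-0.015) and for mt-tRNA-Lys (0.094), mt-tRNA-Gly (0.26) and mt-tRNA-Arg (0.032) in hearts, and taken of the 14 heavy-strand-transcript tRNAs for mt-tRNA-Arg in fibroblasts (0.11). Transcripts called fell to 9 with passages summed and 30 of fewer rows with nuclear sums, against 97, and in hearts were 14 with library totals, 13 scaled on the 18 mitochondrial tRNAs, 27 with DESeq2 and up to 31 with 1 heart left out, against 0. In 10X hearts they were 57 with library totals, 55 on the 18 tRNAs and 41 to 121 with 1 heart left out, against 93.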
